A study of Mus musculus with 3 samples.

Results

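The 8 genes Hp, Tst, Sncg, Cyp2f2, Slc7a10, Fcor, Proca1 and Adhfe1 were followed through 3 RNA-seq libraries of mouse inguinal lymph node, and each was set against the adipocyte genes Adipoq and Fabp4. They come from a gene table of 46951 loci and were chosen by their FPKM values, which had been seen to be highest in the 20(OH)D3 library. Each symbol was matched to the rows that carry it, keeping the row of highest mean level where there were several, and all 8 were found. The ratios between libraries that chose them are therefore given as descriptions, with no test. The set had been named for being high with 20(OH)D3 alone. The data went against that name most for Fcor and Proca1, which stood at over 4 times the Control level with 25(OH)D3 too. Hp, Tst and Adhfe1 were also above Control with 25(OH)D3, by count ratios of 1.56, 1.94 and 1.56. Only Sncg, Cyp2f2 and Slc7a10 were not.

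The study treated male C57BL/6j mice with 1 of 2 monohydroxylated vitamin D3 derivatives. All of the mice, Control included, had dinitrofluorobenzene (DNFB), a skin sensitizer, applied to the abdomen, and injections into the peritoneum started 3 days afterwards. The 3 groups were 20(OH)D3 at 4 µg/kg per day, 25(OH)D3 at 4 µg/kg per day, and Control, which received the ethanol vehicle. The sample labels give 4 daily injections with collection 24 hours after the last one, while the series description gives 1 week. The 2 compounds differ in the side-chain carbon that carries the hydroxyl group. Each group was 1 library. Neither the age of the mice nor whether a library pooled several of them is stated in the sources at hand.

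Fat cells make several of these 8 products. Haptoglobin (Hp) is a secreted protein that binds free haemoglobin, and it is made by liver, by fat and by maturing neutrophils. Tst encodes thiosulfate sulfurtransferase, or rhodanese, a mitochondrial enzyme that handles sulfide and cyanide, and Adhfe1 encodes a mitochondrial hydroxyacid-oxoacid transhydrogenase that oxidises gamma-hydroxybutyrate. Cyp2f2 encodes a cytochrome P450 enzyme best known from the club cells of the mouse airway. Slc7a10 encodes Asc-1, a carrier of small neutral amino acids that is found in brain and on white adipocytes. Sncg encodes gamma-synuclein, a protein of sensory neurons and adipocytes. Fcor encodes a corepressor of the transcription factor FoxO1 in fat, and Proca1 a protein first found through its binding to cyclin A1. Inguinal nodes lie embedded in subcutaneous fat.

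Depth was similar in the 3 libraries, with 7522550, 7991748 and 8226431 reads in the 20(OH)D3, 25(OH)D3 and Control libraries. Levels are in FPKM, fragments scaled to transcript length and to the size of the library, as deposited. Reads are the deposited normalized counts divided by 1 factor per library, and this recovery is less certain for the 25(OH)D3 library, whose factor is close to 1. Ratios of counts carry exact 95% Clopper-Pearson intervals, worked out with the total of the 2 counts held fixed. These intervals take in counting error alone and no spread between libraries. No molecular identifiers are named, so 2 fragments need not be separate molecules. Where they are not, the intervals are too narrow even for counting error. With 1 library a group no difference had a replicate check, and both comparisons with Control share the same Control library. In whole tissue a change in the number of cells of a type and a change in RNA per cell cannot be told apart.

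All 8 genes were at least 2-fold higher in the 20(OH)D3 library than in the Control library on the log2(FPKM + 1) scale, a difference shared by 4.42% of the 14032 loci that averaged at least 1 FPKM. Their median log2 ratio was 2.24, beside -0.01 over those loci. Between the compounds 6 of 8 were at least 2-fold higher with 20(OH)D3, against 3.20% of loci, and Fcor and Proca1 were not. Proca1 lay at the threshold, with a log2 ratio of 0.98 and an FPKM fold of 2.16, and the count was 7 with a pseudocount of 0.1 FPKM or with median-of-ratios scaling and 5 with a pseudocount of 5 FPKM. With 25(OH)D3 only Fcor and Proca1 were at least 2-fold higher than Control, against 1.35% of loci. None of the 8 was at least 2-fold lower in any of these comparisons, where 1.13%, 1.22% and 1.02% of loci were, in the same order. Nothing is read from these counts, because the same values chose the genes. All 8 passed the filter in each library taken alone, the lowest value of any being 1.25 FPKM for Proca1 in the Control library.

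**Figure D1:**
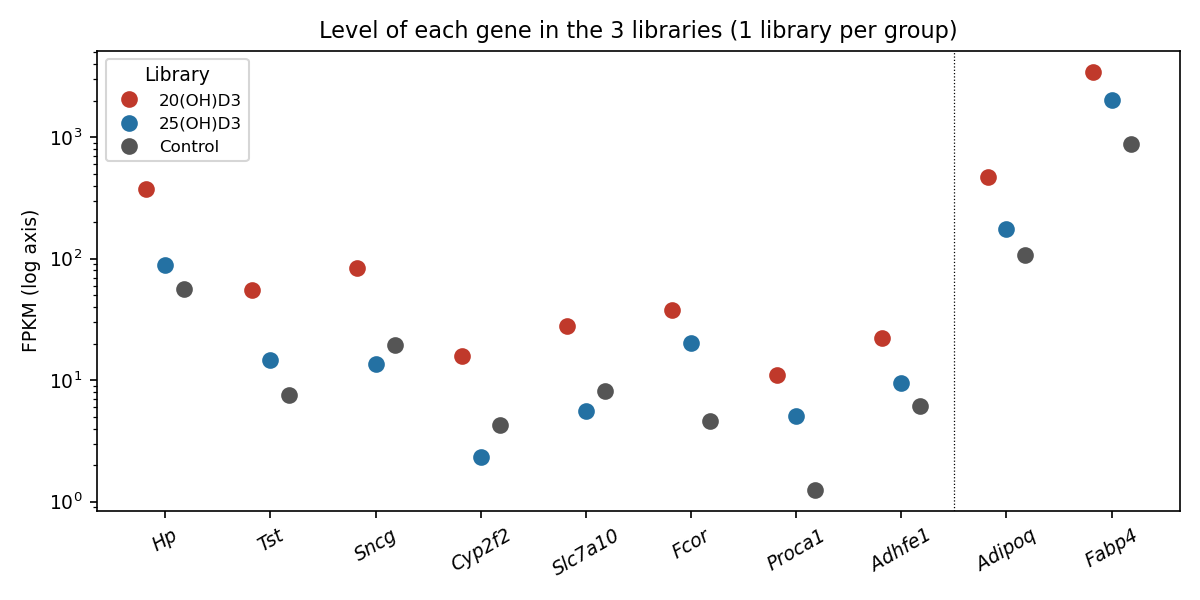
Level of each gene in FPKM, on a log axis, with 1 point per library, for the 8 genes and, right of the dotted line, Adipoq and Fabp4. The 20(OH)D3 point is highest for every gene shown, and the 25(OH)D3 point lies below the Control point for Sncg, Cyp2f2 and Slc7a10.

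The secreted protein came first in abundance. Hp (GRCm38 chromosome 8, 109575128 to 109579172, 5 exons) stood at 376 FPKM with 20(OH)D3, 88.8 FPKM with 25(OH)D3 and 56.6 FPKM in Control. These values rest on 3557, 890 and 611 reads, the deepest coverage of the set. Its count ratio was 6.51 for 20(OH)D3 over Control (interval 5.98 to 7.11), 4.17 for 20(OH)D3 over 25(OH)D3 (3.87 to 4.49) and 1.56 for 25(OH)D3 over Control (1.41 to 1.74). Of the list for haemoglobin and haem scavenging and the acute phase, 8 of 13 genes averaged at least 1 FPKM and 3 were at least 2-fold higher with 20(OH)D3 than in Control, with a list median of 0.78 on the log2 scale. Hp was the highest of them. The other genes past 2-fold, named after their values were seen, were Orm1, an acute phase carrier protein, at 44.0 FPKM with 20(OH)D3, 30.3 FPKM with 25(OH)D3 and 13.8 FPKM in Control, and Lrp1, a scavenger receptor, at 52.0, 32.4 and 24.5 FPKM in the same order. Lbp, which binds bacterial lipopolysaccharide, was the lowest of the list at 3.79, 3.83 and 3.86 FPKM. By reads Lrp1 had 1244, 570 and 654 and Lbp 68, 44 and 58, so for both the FPKM order was not that of the reads. The acute phase genes Saa1 and Saa2 had no reads in any library, while Saa3 (8, 23 and 5 reads) and Lcn2 (10, 30 and 4 reads) had most with 25(OH)D3, unlike Hp.

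Among the 3 enzymes Tst had the largest ratio to Control. Tst (chromosome 15, 78399556 to 78405859, 2 exons) stood at 55.2 FPKM with 20(OH)D3, 14.8 FPKM with 25(OH)D3 and 7.54 FPKM in Control, from 418, 116 and 64 reads. The count ratio was 7.31 for 20(OH)D3 over Control (5.61 to 9.66) and 1.94 for 25(OH)D3 over Control (1.42 to 2.68). In the sulfide and cyanide list Tst was the 1 gene past 2-fold among 7 that averaged at least 1 FPKM, with a list median of 0.16. Tstd1 was the lowest, at 55.3 FPKM with 20(OH)D3, 81.7 FPKM with 25(OH)D3 and 74.2 FPKM in Control, in a row it shares with Usf1. Mpst, the paralogue that makes hydrogen sulfide, lies 508 bases from the start of Tst on the opposite strand. Mpst stood at 24.9, 18.8 and 18.9 FPKM in the 20(OH)D3, 25(OH)D3 and Control libraries, so the neighbour was within 2-fold throughout.

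Adhfe1 (chromosome 1, 9547948 to 9631175 in the deposited table, 14 exons in its longest coding transcript) stood at 22.4 FPKM with 20(OH)D3, 9.43 FPKM with 25(OH)D3 and 6.18 FPKM in Control, from 347, 156 and 107 reads. The count ratio was 3.63 for 20(OH)D3 over Control (2.91 to 4.55) and 1.56 for 25(OH)D3 over Control (1.22 to 2.02). The locus as deposited reaches past the gene itself, over Vxn, and the gene overlaps an antisense transcript, 2610203C22Rik, whose own row held 14, 12 and 22 reads in the 20(OH)D3, 25(OH)D3 and Control libraries. Of 9 genes of hydroxyacid metabolism that averaged at least 1 FPKM, Adhfe1 alone was at least 2-fold higher with 20(OH)D3, and the list median was 0.49.

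Cyp2f2 (chromosome 7, 27119909 to 27133660, 10 exons) showed another order. It stood at 15.8 FPKM with 20(OH)D3, 2.34 FPKM with 25(OH)D3 and 4.28 FPKM in Control, from 221, 34 and 67 reads, so the Control library lay above the 25(OH)D3 library. The count ratio was 3.69 for 20(OH)D3 over Control (2.80 to 4.93), 6.78 for 20(OH)D3 over 25(OH)D3 (4.71 to 10) and 0.544 for 25(OH)D3 over Control (0.349 to 0.835). The list of the P450 family 2 and its reductases held 10 genes that averaged at least 1 FPKM, with a median of 0.46. Of these, 3 were at least 2-fold higher with 20(OH)D3 than in Control: Cyp2f2, Cyp2e1 and Por, which encodes a reductase and not a P450 enzyme. The highest was Cyp2e1, an ethanol-oxidising P450 enzyme, at 484 FPKM with 20(OH)D3, 158 FPKM with 25(OH)D3 and 132 FPKM in Control. The lowest was Cyp2r1, a vitamin D 25-hydroxylase, at 1.70, 1.32 and 2.85 FPKM, from 12, 11 and 27 reads. An antisense gene within Cyp2f2, Gm15883, had no reads.

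The transporter Slc7a10 (chromosome 7, 35186385 to 35215498 in the deposited table, 11 exons) had the same order as Cyp2f2. It stood at 27.9 FPKM with 20(OH)D3, 5.61 FPKM with 25(OH)D3 and 8.16 FPKM in Control, from 335, 61 and 96 reads. The count ratio was 3.90 for 20(OH)D3 over Control (3.10 to 4.95), 5.73 for 20(OH)D3 over 25(OH)D3 (4.35 to 7.65) and 0.682 for 25(OH)D3 over Control (0.486 to 0.949). It overlaps Lrp3 on the opposite strand over 1088 bases, and no source at hand says whether counting used strand. The row of Lrp3 held 108, 60 and 67 reads in the 20(OH)D3, 25(OH)D3 and Control libraries. In the family of SLC7 carriers and their heavy chains, Slc7a10 was the 1 gene above 0 among 8 that averaged at least 1 FPKM, and the list median was -0.22. Slc3a1, a heavy chain, was the lowest at 0.510 FPKM with 20(OH)D3, 1.20 FPKM with 25(OH)D3 and 1.37 FPKM in Control, from 9, 22 and 27 reads.

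Sncg (chromosome 14, 34370274 to 34374789, 5 exons) completed the group of genes with 25(OH)D3 lowest. It stood at 84.3 FPKM with 20(OH)D3, 13.7 FPKM with 25(OH)D3 and 19.5 FPKM in Control, from 468, 79 and 121 reads. The count ratio was 4.33 for 20(OH)D3 over Control (3.54 to 5.33), 6.18 for 20(OH)D3 over 25(OH)D3 (4.86 to 7.94) and 0.700 for 25(OH)D3 over Control (0.521 to 0.938). Its relative Sncb, beta-synuclein, was scarcely covered, with 1, 1 and 0 reads in the 20(OH)D3, 25(OH)D3 and Control libraries.

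Fcor (chromosome 8, 3671188 to 3672362, 2 exons) and Proca1 (chromosome 11, 78193392 to 78205763, 4 exons) were the least covered and were higher with both compounds. Fcor stood at 38.1 FPKM with 20(OH)D3, 20.4 FPKM with 25(OH)D3 and 4.63 FPKM in Control, from 66, 36 and 9 reads. Its count ratio was 8.21 for 20(OH)D3 over Control (4.07 to 18.7), 1.91 for 20(OH)D3 over 25(OH)D3 (1.26 to 2.95) and 4.29 for 25(OH)D3 over Control (2.03 to 10.1). Proca1 stood at 11.0, 5.08 and 1.25 FPKM in the 20(OH)D3, 25(OH)D3 and Control libraries, from 80, 43 and 11 reads. Its count ratio was 8.14 for 20(OH)D3 over Control (4.31 to 17.0), 1.94 for 20(OH)D3 over 25(OH)D3 (1.32 to 2.88) and 4.19 for 25(OH)D3 over Control (2.13 to 9.02). The intervals of these 2 genes are wide because the Control library gave so few reads of them.

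In the list of FoxO1 and insulin signalling, Fcor was the 1 gene of 12 at least 2-fold higher with 20(OH)D3 than in Control and the list median was -0.01. Foxo1 itself, the factor that the Fcor product represses, named after its values were seen, stood at 24.7 FPKM with 20(OH)D3, 26.1 FPKM with 25(OH)D3 and 27.7 FPKM in Control. Foxo3 was the lowest of that list at 9.38, 12.1 and 12.8 FPKM. In the list of cyclin A partners and secreted phospholipases, Proca1 was the 1 gene past 2-fold among 7 that averaged at least 1 FPKM, with a median of 0.04. Cdk2, a kinase that binds cyclin A, was the lowest at 19.9, 22.8 and 24.3 FPKM in the 20(OH)D3, 25(OH)D3 and Control libraries, and Ccna1, the cyclin through which Proca1 was found, had no reads.

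Adipoq and Fabp4 supplied the measure of fat message. Adipoq, the adipokine adiponectin, stood at 471 FPKM with 20(OH)D3, 175 FPKM with 25(OH)D3 and 107 FPKM in Control. Fabp4, a fatty acid carrier, stood at 3461, 2007 and 877 FPKM in that order. The 2 did not move in step, least of all with 25(OH)D3. The ratio of Fabp4 to Adipoq reads was 1.42 times as high with 25(OH)D3 as in Control (1.31 to 1.54), and 0.899 times as high with 20(OH)D3 as in Control (0.836 to 0.967). For that reason each gene was set against both.

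With 20(OH)D3, the proportion of Sncg, Slc7a10, Cyp2f2 and Adhfe1 to Adipoq lay within counting error of that in Control. Sncg, at 17.9% of the Adipoq FPKM with 20(OH)D3 and 18.2% in Control, had a ratio of read ratios of 0.984 (0.795 to 1.23). The ratio was 0.888 for Slc7a10 (0.698 to 1.14), 0.839 for Cyp2f2 (0.630 to 1.13) and 0.825 for Adhfe1 (0.656 to 1.05). Against Fabp4 these 4 genes had ratios from 0.917 to 1.09 and intervals that all held 1. Hp and Tst exceeded both proportions. Hp stood at 79.7% of the Adipoq FPKM with 20(OH)D3 and 52.8% in Control, a ratio by reads of 1.48 (1.33 to 1.65), and against Fabp4 the ratio was 1.65 (1.50 to 1.81). Tst stood at 11.7% with 20(OH)D3 and 7.04% in Control, a ratio by reads of 1.66 (1.26 to 2.22), and 1.85 against Fabp4 (1.42 to 2.45). Fcor and Proca1 had ratios of 1.87 (0.922 to 4.27) and 1.85 (0.976 to 3.87) to Adipoq, whose intervals held 1, and of 2.07 (1.03 to 4.74) and 2.06 (1.09 to 4.29) to Fabp4, whose intervals did not. With 9 and 11 Control reads, these 2 ratios were larger than those of Hp and Tst yet too imprecise to be set apart from 1 against Adipoq. By the same interval rule 2 of the 8 genes exceeded Adipoq, against 0.0713% of loci and 1 of the 21 other genes of a white adipocyte list, Cfd, and 4 of the 8 exceeded Fabp4, against 0.121% of loci and 4 of 21 list genes. Both shares of loci include these genes, which were chosen for being high in the 20(OH)D3 library.

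With 25(OH)D3 the genes parted. Sncg stood at 7.86% of the Adipoq FPKM with 25(OH)D3 and 18.2% in Control, a ratio by reads of 0.431 (0.317 to 0.584). The ratio was 0.335 for Cyp2f2 (0.214 to 0.518) and 0.420 for Slc7a10 (0.297 to 0.590), so these 3 genes stood below their Control proportion to Adipoq while Adipoq itself was higher than in Control. Against Fabp4 their ratios lay between 0.236 and 0.303. Hp (0.962, interval 0.845 to 1.10), Tst (1.20, 0.866 to 1.67) and Adhfe1 (0.963, 0.739 to 1.26) had intervals to Adipoq that held 1. Against Fabp4, Hp was at 0.677 (0.607 to 0.755) and Adhfe1 at 0.678 (0.525 to 0.877), while the interval of Tst held 1. Fcor (2.64, 1.24 to 6.26) and Proca1 (2.58, 1.30 to 5.57) exceeded Adipoq, and against Fabp4 their intervals held 1. Fat genes parted here as well. Relative to Adipoq 2 of the 8 genes lay above their Control proportion, against 0.563% of loci and 7 of 21 list genes, and 3 of the 8 lay below it, against 78.1% of loci and 6 of 21 list genes. Relative to Fabp4 5 of the 8 lay below, against 90.4% of loci and 18 of 21 list genes.

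**Figure D2:**
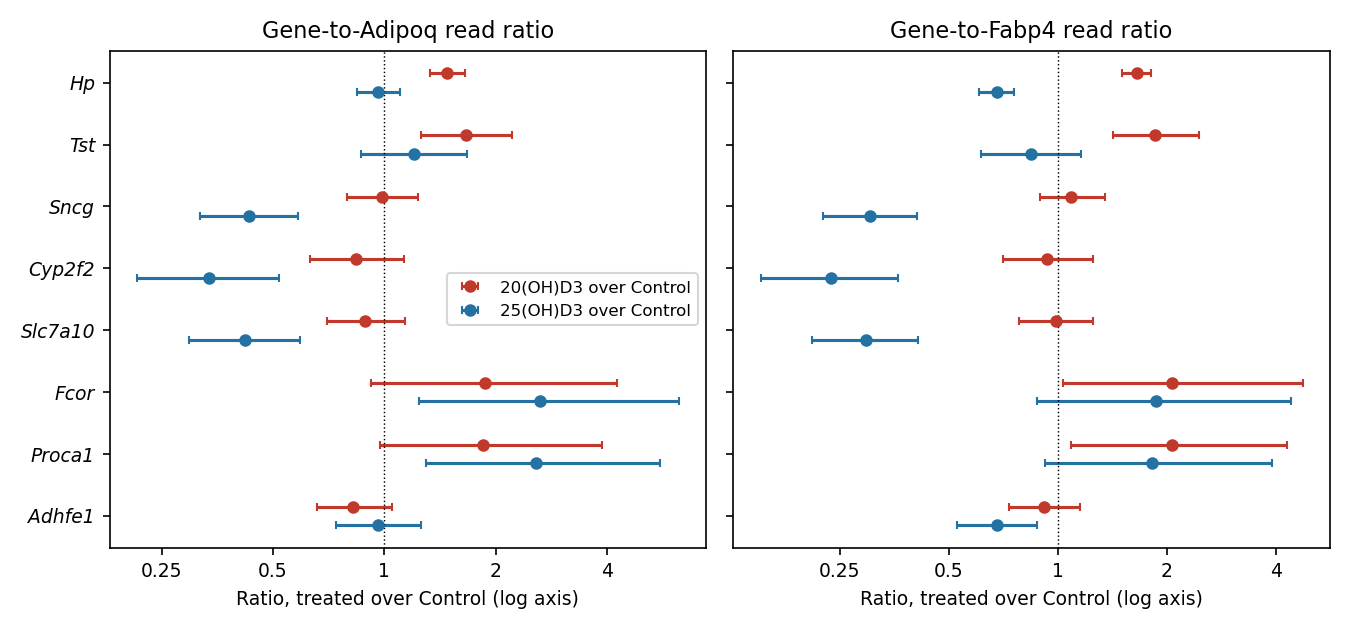
Ratio of each gene's reads to Adipoq reads (left) and to Fabp4 reads (right), as 20(OH)D3 over Control (red) and 25(OH)D3 over Control (blue), on a log axis. Points are ratios, bars are exact 95% intervals for counting error, and the dotted line at 1 marks an unaltered proportion. The blue points of Sncg, Cyp2f2 and Slc7a10 lie below 0.5 in both panels, while their red intervals hold 1.

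Adhfe1 was thus the gene that stayed nearest to Adipoq over all 3 libraries, with intervals holding 1 in each comparison, 20(OH)D3 over 25(OH)D3 included (0.857, interval 0.701 to 1.05). Between the compounds, at equal dose and schedule, 5 genes exceeded Adipoq with 20(OH)D3, against 0.242% of loci, a share that includes them. The genes were chosen for being high in that library, and 3 of 21 list genes, Cfd, Plin4 and Cidec, exceeded Adipoq too. The 5 were Cyp2f2 (2.50, 1.73 to 3.72), Sncg (2.28, 1.78 to 2.95), Slc7a10 (2.12, 1.60 to 2.84), Hp (1.54, 1.40 to 1.69) and Tst (1.39, 1.12 to 1.73). Fcor (0.706, 0.462 to 1.10) and Proca1 (0.717, 0.487 to 1.07) had intervals that held 1. Relative to Fabp4 the ratios between the compounds were 3.96 for Cyp2f2, 3.61 for Sncg, 3.34 for Slc7a10, 2.43 for Hp and 2.19 for Tst. Adhfe1 exceeded Fabp4 as well (1.35, 1.12 to 1.65), as did Adipoq itself (1.58, 1.49 to 1.68). The intervals of Fcor (1.12, 0.732 to 1.73) and Proca1 (1.13, 0.772 to 1.68) held 1. These intervals compare 1 library with another, so an interval that holds 1 does not show that the 2 compounds act alike.

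The genes were also compared with each other, in 28 pairs, by the same ratio of reads. Within the group of Sncg, Cyp2f2 and Slc7a10 all 3 pairs had intervals that held 1 in both treated libraries. Sncg over Slc7a10 was 1.11 with 20(OH)D3 (0.809 to 1.52) and 1.03 with 25(OH)D3 (0.655 to 1.61), both relative to Control. Hp over Tst was 0.891 with 20(OH)D3 (0.665 to 1.18) and 0.804 with 25(OH)D3 (0.573 to 1.12). Fcor over Proca1 was 1.01 with 20(OH)D3 (0.355 to 2.93) and 1.02 with 25(OH)D3 (0.342 to 3.13), on low counts. Some genes of different groups parted, and Hp over Sncg was 1.51 with 20(OH)D3 (1.20 to 1.88) and 2.23 with 25(OH)D3 (1.63 to 3.06). In all, the interval lay beyond 1 in 13 pairs with 20(OH)D3 and in 20 pairs with 25(OH)D3. These groupings were drawn after the values were seen.

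A list of 22 white adipocyte genes, which holds Adipoq and Fabp4 and none of the 8, gave the range that fat genes themselves covered. On normalized counts (pseudocount 10) the list ran from 0.33 for Lpin1, a phosphatidate phosphatase, to 2.56 for Cfd, or adipsin, in log2 ratio of 20(OH)D3 over Control. Hp and Tst lay above that range at 2.68 each, and the other 6 genes lay inside it, while 80.7% of loci lay below it. Above it lay 5 loci in all, or 0.0356% of those tested, with Hp and Tst among them. The 8 genes were chosen for being high in the 20(OH)D3 library, so a place above the range is a description only. Fcor depended on the scale: on FPKM + 1 it lay above the range too, at 2.80 against 2.56 for Cfd, and on normalized counts with a pseudocount of 1 both Fcor (2.90) and Proca1 (2.91) did. With 25(OH)D3 over Control the list ran from -0.01 for the leptin gene Lep to 1.50 for Pparg, the receptor that drives fat cell formation. Sncg (-0.46), Cyp2f2 (-0.72) and Slc7a10 (-0.49) lay below it, where 46.0% of all loci also lay. Since the set was chosen as high with 20(OH)D3 alone, a place below the range is a description as well. None of the 8 lay above the range, where 0.0998% of loci did. That too changed with the scale, since Fcor lay above Pparg on FPKM + 1 (1.93 against 1.47), and Fcor (1.98) and Proca1 (1.97) lay above it at 1.59 on normalized counts with a pseudocount of 1. Between the compounds Hp, Tst, Sncg, Cyp2f2 and Slc7a10 lay above the highest list gene, Cfd at 1.81, against 0.150% of loci, with Tst only just so at 1.82, and none of the 8 lay below the list, where 54.5% of loci did. The 0.150% includes these genes, which were chosen for being high with 20(OH)D3.

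**Figure D3:**
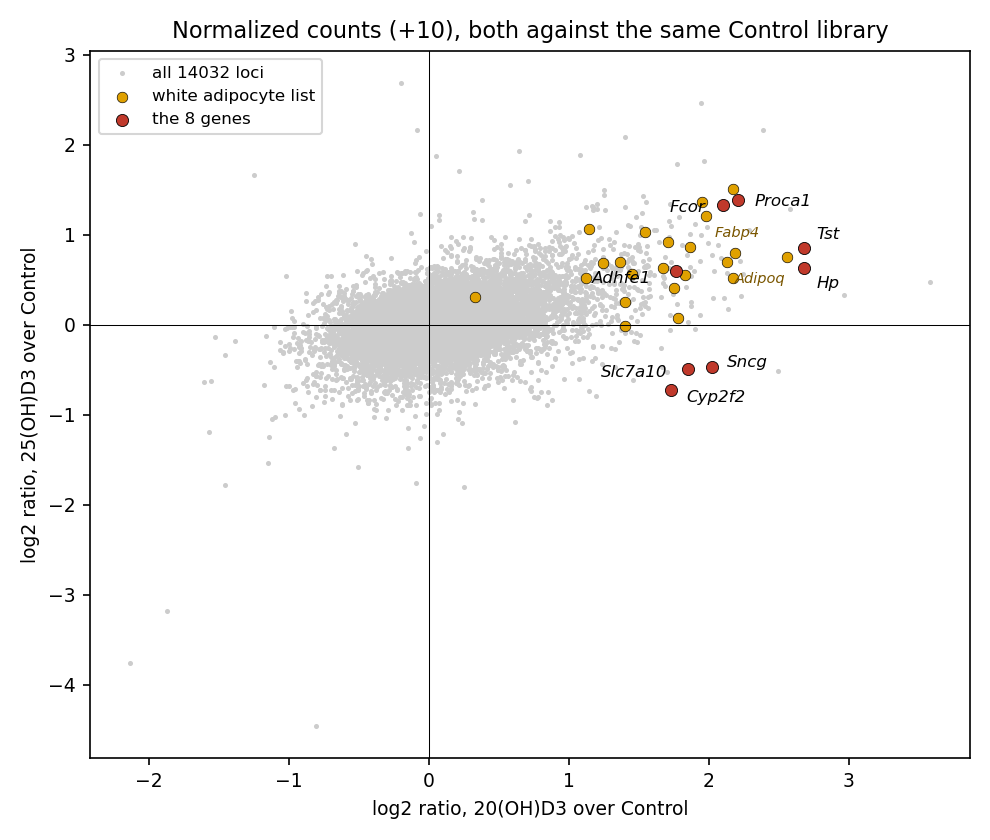
Log2 ratio of normalized counts (+10) for 20(OH)D3 over Control (horizontal) and 25(OH)D3 over Control (vertical), with 1 point per locus. Grey points are all 14032 loci, gold points the white adipocyte list and red points the 8 genes, and both axes share the Control library. Hp and Tst lie right of every gold point, and Sncg, Cyp2f2 and Slc7a10 lie below every gold point.

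The start regions of Sncg, Cyp2f2 and Slc7a10 are shown because these genes stood below the range of the fat list with 25(OH)D3, with that of Fcor as a gene of the other order and that of Adipoq as the fat gene used for comparison. The sequences are RefSeq windows on GRCm38.p6, 250 bases before to 50 bases after a gene's start, 5′ to 3′ on the gene's strand. Such windows were found for 5 of the 8 genes, 6 windows in all, and Hp, Tst and Adhfe1 were without one. Capitals mark matches, on either strand, to AGGTCA (a half-site of nuclear receptors), GGTTCA (a half-site of the vitamin D receptor), CCAAT (the CCAAT box), GGGCGG (the GC box) and TATAAA (the TATA box), and no 2 matches overlapped.
Sncg, chr14:34374620-34374919, minus strand: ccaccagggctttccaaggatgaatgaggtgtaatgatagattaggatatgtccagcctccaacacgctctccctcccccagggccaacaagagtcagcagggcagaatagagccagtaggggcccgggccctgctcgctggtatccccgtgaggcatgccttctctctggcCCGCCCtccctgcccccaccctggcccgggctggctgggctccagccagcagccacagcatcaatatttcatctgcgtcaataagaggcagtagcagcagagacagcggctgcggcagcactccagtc
Cyp2f2, chr7:27119705-27120004, plus strand: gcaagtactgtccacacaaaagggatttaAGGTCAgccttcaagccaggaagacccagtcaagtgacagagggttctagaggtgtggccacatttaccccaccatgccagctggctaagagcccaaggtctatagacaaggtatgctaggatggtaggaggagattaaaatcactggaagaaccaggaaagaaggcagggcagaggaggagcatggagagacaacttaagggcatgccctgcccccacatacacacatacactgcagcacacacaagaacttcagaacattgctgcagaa
Slc7a10, chr7:35186135-35186434, plus strand: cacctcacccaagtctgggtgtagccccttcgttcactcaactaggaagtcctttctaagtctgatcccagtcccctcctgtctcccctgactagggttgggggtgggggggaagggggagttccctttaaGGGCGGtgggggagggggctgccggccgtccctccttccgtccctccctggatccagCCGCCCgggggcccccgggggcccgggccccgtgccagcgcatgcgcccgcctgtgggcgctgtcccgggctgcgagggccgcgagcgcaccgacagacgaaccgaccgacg
Fcor, chr8:3672342-3672641, minus strand: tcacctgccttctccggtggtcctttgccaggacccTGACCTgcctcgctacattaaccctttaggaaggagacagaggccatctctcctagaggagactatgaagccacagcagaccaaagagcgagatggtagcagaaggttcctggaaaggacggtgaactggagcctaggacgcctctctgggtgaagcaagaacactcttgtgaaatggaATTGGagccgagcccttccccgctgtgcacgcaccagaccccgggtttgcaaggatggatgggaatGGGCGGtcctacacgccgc
Adipoq, chr16:23146286-23146585, plus strand: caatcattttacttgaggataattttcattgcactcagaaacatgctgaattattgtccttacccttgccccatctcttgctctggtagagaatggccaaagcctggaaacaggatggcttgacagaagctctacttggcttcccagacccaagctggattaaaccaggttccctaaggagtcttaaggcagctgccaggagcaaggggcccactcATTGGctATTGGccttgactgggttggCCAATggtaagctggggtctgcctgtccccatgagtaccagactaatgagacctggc

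The 3 genes that stood lowest with 25(OH)D3 had no marked motif in common. Sncg had 1 GC box, 78 bases before the start, and Slc7a10 had 2, at 119 and 62 bases before it, while Cyp2f2 had none and carried 1 AGGTCA, 221 bases before its start. AGGTCA was also found in Fcor and in 1 of the 2 Proca1 windows, so 3 of 6 windows held it, against 16.3% of 32851 RefSeq windows of the same length. The GC box was in 4 of 6 windows, against 35.7%, and CCAAT in 1 of 6, that of Fcor, against 37.4%. No window of the 5 genes held GGTTCA, present in 10.4% of windows, or TATAAA, present in 13.6%. Adipoq held 3 CCAAT matches and none of the others. Base composition also differed, with 70.7% G and C and 24 CG dinucleotides in Slc7a10, 61.3% and 9 in Sncg, and 50.3% and 0 in Cyp2f2, against medians of 52.7% and 7 over all windows. A match to these letters is not a binding site, and a missing match says only that the letters are not in this window.

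Position on the chromosome was examined through the nearest coding gene on each side of each of the 8. Of 16 such neighbours, 11 averaged at least 1 FPKM, and 2 of these were at least 2-fold higher with 20(OH)D3 than in Control, against 4.42% of all loci at that level. Nothing is read from so small a count. One was Cebpa, a transcription factor of adipocytes that stands in the white adipocyte list, 64456 bases from Slc7a10, at 115 FPKM with 20(OH)D3, 47.4 FPKM with 25(OH)D3 and 32.8 FPKM in Control. The other was Rab34, a small GTPase gene 1198 bases from Proca1, at 20.9, 7.43 and 8.01 FPKM. Unlike Proca1, Rab34 was not higher with 25(OH)D3 than in Control. The nearest neighbours of Fcor, Mcemp1 and Trappc5, had log2 ratios of 0.16 and 0.09 for 20(OH)D3 over Control, and those of Hp, Txnl4b and Dhodh, of 0.08 and 0.01.

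The loci whose profile over the 3 libraries came nearest to the median profile of the 8 genes were Cidec, Nnmt, G0s2, Adipoq and Wfdc17, in that order, among 8570 loci considered. Likeness was the Euclidean distance of log2(FPKM + 1) centred over the 3 libraries, and it ran from 0.06 for Cidec to 0.21 for Wfdc17. Cidec stood at 289 FPKM with 20(OH)D3, 92.1 FPKM with 25(OH)D3 and 64.4 FPKM in Control, and Nnmt at 27.5, 8.79 and 5.25 FPKM. G0s2 stood at 133, 45.7 and 27.1 FPKM, and Wfdc17 at 44.1, 10.4 and 7.69 FPKM, from 128, 31 and 25 reads. Among the 8, distance to Adipoq ran from 0.30 for Adhfe1 to 0.98 for Cyp2f2, and distance to Fabp4 from 0.31 for Proca1 to 1.41 for Cyp2f2. With 3 libraries these distances rest on few points.

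Markers of the cell types in which these genes are known were read beside them. White adipocyte genes were at least 2-fold higher with 20(OH)D3 than in Control in 20 of 22, with a median log2 ratio of 1.69, and in 4 of 22 with 25(OH)D3, with a median of 0.68. Their summed level was 12350 FPKM with 20(OH)D3, 5773 FPKM with 25(OH)D3 and 3069 FPKM in Control. Brown adipocyte genes were past 2-fold with 20(OH)D3 in 4 of 6 and with 25(OH)D3 in 5 of 6, and their sums were 555, 556 and 120 FPKM. They ran from Cox8b, a respiratory chain subunit of brown fat (373, 327 and 66.1 FPKM), to Prdm16, a brown fat regulator (1.07, 1.86 and 0.875 FPKM). By reads Prdm16 had 68, 39 and 39, another order than in FPKM. The part of fat content in the levels of the 8 genes was not tested beyond the ratios above.

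Other cell types known to express some of the 8 genes gave mixed values, and their part in the levels of the 8 was not tested. Of 9 hepatocyte genes Apoa1, Ttr, Fgb and Ambp had no reads, the albumin gene Alb had 25, 9 and 9 reads with 20(OH)D3, 25(OH)D3 and in Control, and Apoa2 had 7, 1 and 0. Only Cyp2e1, which adipocytes also express, was abundant, and it carried nearly all of the list's 6658, 2249 and 2033 reads. Of 6 airway club cell genes Scgb1a1, Scgb3a2 and Sftpb had no reads, and Cbr2, a carbonyl reductase, held 116 of 118, 50 of 53 and 89 of 91 reads of the list in that order, at 20.4, 9.33 and 15.4 FPKM. Of 6 peripheral neuron genes found, Nefl and Th had no reads, Nefh, a neurofilament, stood at 1.71, 2.49 and 2.37 FPKM, and Uchl1, a neuronal hydrolase, at 1.97, 2.12 and 2.03 FPKM. Uchl1 rested on 14, 8 and 17 reads, another order than in FPKM. The 11 neutrophil genes summed to 437 reads with 20(OH)D3, 741 with 25(OH)D3 and 420 in Control. Among them S100a8, a calcium-binding granulocyte protein, was highest in ratio at 58, 91 and 9 reads, and Retnlg, a granulocyte resistin-like protein, lowest at 0, 11 and 6.

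The remaining marker lists had medians nearer to 0 than the 8 genes. With 20(OH)D3 over Control the median log2 ratio was 0.70 for fibroblast and preadipocyte genes, from Dpp4, a surface peptidase (20.6 FPKM with 20(OH)D3, 26.8 FPKM with 25(OH)D3 and 25.2 FPKM in Control), to Lum, a collagen-binding proteoglycan (14.4, 3.92 and 3.07 FPKM). It was 0.55 for macrophage genes, from the growth factor receptor Csf1r (61.5, 44.7 and 58.4 FPKM) to the complement gene C1qb (337, 149 and 144 FPKM). It was -0.45 for T cell genes, with 1 of 10 above 0, from the transcription factor Lef1 (44.6, 85.6 and 70.0 FPKM) to the receptor subunit Cd3g (199, 210 and 190 FPKM). It was -0.24 for B cell genes, with 1 of 9 above 0, from the transcription factor Pax5 (60.3, 91.2 and 90.3 FPKM) to the receptor subunit Cd79a (715, 743 and 656 FPKM). With 25(OH)D3 over Control these medians were 0.24, 0.01, 0.11 and 0.09. Epithelial and muscle genes were sparse, with 96 and 63 reads with 20(OH)D3, 107 and 58 with 25(OH)D3 and 110 and 67 in Control. Among those past the filter, the keratin gene Krt10 (2.76, 3.42 and 1.08 FPKM) and the troponin gene Tnni2 (10.2, 8.94 and 7.36 FPKM) were highest in ratio, and the adhesion gene Epcam (2.72, 2.99 and 3.59 FPKM) and the myosin light chain gene Mylpf (2.12, 15.3 and 9.08 FPKM) lowest. By reads Krt10 had 17, 16 and 12 and Tnni2 36, 20 and 22, so for both the FPKM order was not that of the reads. Whether any of these cell types bears on the 8 genes was not tested.

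**Figure D4:**
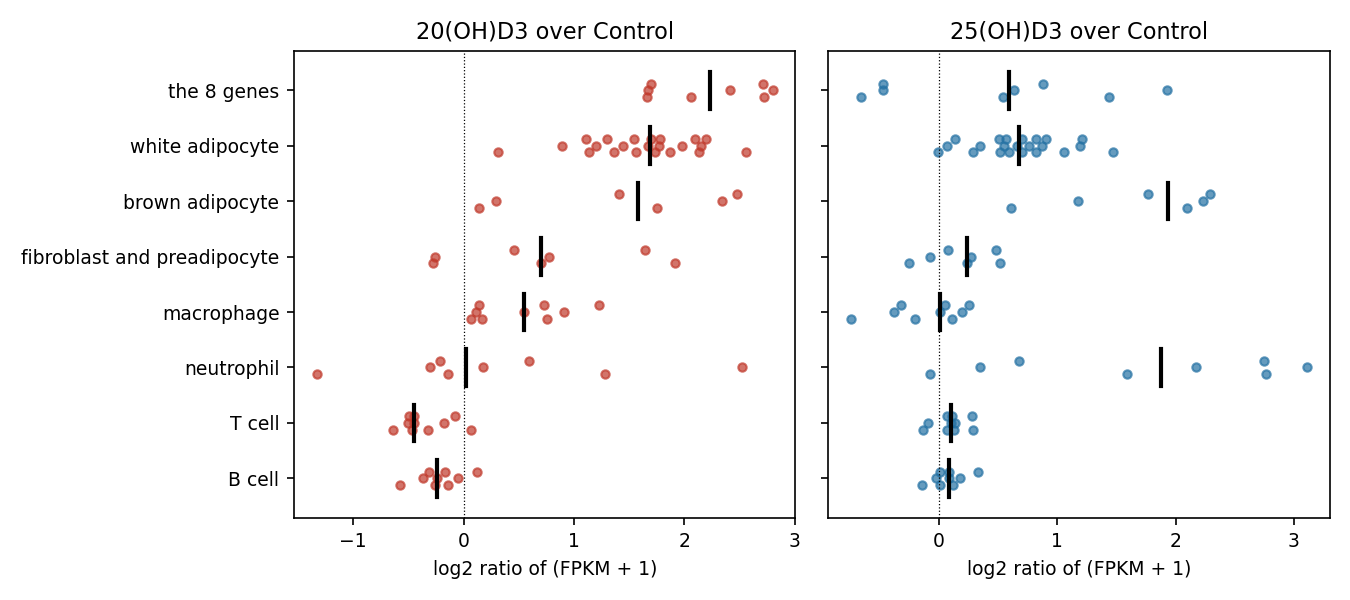
Log2 ratio of (FPKM + 1) for 20(OH)D3 over Control (left) and 25(OH)D3 over Control (right), with 1 point per gene that averaged at least 1 FPKM and a bar at each list's median. The 8 genes all lie above 1.6 on the left, where the white adipocyte median is 1.69, and on the right they spread from -0.66 to 1.93.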

How the data were processed

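RNA of mouse inguinal lymph node was sequenced, with 1 library for each of 3 groups. The tools named, per the submitters' processing notes, are Cuffnorm, Cuffdiff, Cufflinks 2.2.1 and STAR 2.7.0c, and the build is GRCm38. Their roles, settings, annotation and use of strand are not stated in the sources at hand. The deposited gene table gives an FPKM value per library, scaled by the authors to transcript length and library size. It also gives a normalized count signal per library, deposited by the authors as whole reads times 1 factor (1.05, 1.01 and 0.938 for 20(OH)D3, 25(OH)D3 and Control). Once divided by the library's factor, 99.9% of the normalized counts came out whole, with a tolerance of 0.02. Of the table's lines, 2 were empty. Its locus starts are counted from 0 and were raised by 1 here.

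Log2 ratios of (FPKM + 1) were computed for 14032 loci averaging at least 1 FPKM, and ratios of read ratios between genes were given conditional exact 95% intervals. No count model was fitted, because single libraries give no measure of replicate spread. The 8 genes, the 22 lists and the groupings were chosen with earlier results of these data known. Named by rule were the 8 genes, Adipoq, Fabp4, the highest and lowest 20(OH)D3 to Control ratio in each list and the 5 nearest loci (at least 5 FPKM on average and 50 reads), with immunoglobulin, T cell receptor, predicted, pseudogene and small RNA loci left out. Other named genes, among them neighbours on the chromosome, Cfd, Lep, Pparg and markers at 0, were chosen after their values were seen. Some list genes are not reported here. Annotation came from GENCODE M21 (GRCm38) and promoter windows from RefSeq. Of 216 list symbols 212 were found. Alternatives were other pseudocounts, thresholds, filters and scalings. The calculations were tested on simulated counts that held counting error alone. The simulated counts were larger than those of Fcor and Proca1 in Control, so the check does not reach genes covered so thinly. Python 3.11.15 with scipy 1.17.1 was used.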

Additional observations from a re-analysis of the deposited data

How the results depend on the processing

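No single-gene ratio of the 8 changed sign, in 120 values under the alternatives, and 8 moved beyond their counting interval. The median log2 ratio of the 8 for 20(OH)D3 over Control was 2.42 with a pseudocount of 0.1 FPKM, 1.61 with 5 FPKM and 2.06 on normalized counts with a pseudocount of 10, against 2.24. Between the compounds it was 1.56 with 5 FPKM, against 1.95. Rescaling to TPM gave 0.45 for 25(OH)D3 over Control, against 0.59, and put the median over all loci at -0.12 there, against 0.03, and at -0.18 for 20(OH)D3 over Control, against -0.01. Genes at least 2-fold higher with 25(OH)D3 than in Control numbered 1 with a pseudocount of 5 FPKM and 1 at a 3-fold threshold, against 2. Genes outside the white adipocyte range were 4 for 20(OH)D3 over Control and 5 for 25(OH)D3 over Control on normalized counts with a pseudocount of 1, 3 and 4 on FPKM + 1, and 5 in each when the range was that of the list's interquartile part, against 2 and 3. The list's own median for 20(OH)D3 over Control was 1.73 on normalized counts with a pseudocount of 10, against 1.69. For 20(OH)D3 over 25(OH)D3 it was 0.95 on those counts and 0.87 over genes averaging at least 5 FPKM, against 0.83, and for 25(OH)D3 over Control it was 0.70 over genes at that level, against 0.68. With the summed reads of the list as the fat measure, an alternative chosen after seeing the data, 4 genes departed from their Control proportion with 20(OH)D3, Hp, Tst, Fcor and Proca1, against 2 with Adipoq. The cause of these shifts was not tested. Of 114 other list medians 42 moved. No paired analysis was possible because each group had 1 library. Low read numbers in Control limit Fcor (9 reads) and Proca1 (11 reads).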

Other observations

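Genes that pattern fat depots were read as well. In the list for subcutaneous fat, 5 of 6 genes averaged at least 1 FPKM and 2 of these were at least 2-fold higher with 20(OH)D3 than in Control, with a median log2 ratio of 0.89. Hoxc8, a homeobox gene of trunk position, was highest at 12.7 FPKM with 20(OH)D3, 6.59 FPKM with 25(OH)D3 and 4.06 FPKM in Control. Tbx15, a T-box factor of subcutaneous fat, was lowest at 3.17, 2.59 and 2.17 FPKM. By reads Tbx15 had 59, 70 and 66, so its FPKM order was not that of its reads. In the list for visceral fat and mesothelium no gene averaged 1 FPKM, Tcf21 and Msln had no reads, and the sum was 20 reads with 20(OH)D3, 8 with 25(OH)D3 and 3 in Control, of which Lrrn4 gave 14, 5 and 2.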
